A study of Mus musculus with 2 samples.

Results

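Chl1, Mdga2, Cdh23, Lamc3 and Mamdc2 are 5 genes of cell adhesion and extracellular matrix that each held a Smyd2 chromatin immunoprecipitation (ChIP-seq) region at the same place in 2 libraries of mouse renal epithelial cells. Their rows were taken by gene name from the authors' region lists, and they made up 5 of the 187 regions listed for Pkd1 wild-type cells and 5 of the 235 listed for Pkd1 null cells. They were chosen by their presence in both lists, with the read numbers known, so that presence is a description and not a result. Of all regions, 31 overlapped between the lists by at least 1 bp, 12 of these lay inside protein-coding genes, and the 5 genes account for 5 of those 12.

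The wild-type library came from cells labelled Pkd1 wild-type and the null library from cells labelled Pkd1null/null, where Pkd1 is the gene most often mutated in dominant polycystic kidney disease. Both were called MEK cells, are described as renal epithelial cells of embryonic kidney on a C57BL/6 background, were grown in the same medium, which contained interferon-gamma, and were precipitated with the same lot of 1 Smyd2 antibody. The labels do not say whether each genotype is 1 clone or several, and each genotype had 1 library, so no value below has a replicate error. Libraries of input DNA, of a control antibody or of cells without Smyd2 were not analysed here, so the values stand without a measured background.

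Smyd2 is a lysine methyltransferase that acts on histones and on other proteins, and ChIP-seq reads pile up where a precipitated protein, or material precipitated without specificity, sits on DNA. Cell adhesion molecules hold neighbouring cells together or to the matrix under them, and laminins build the basement membrane on which kidney tubule cells rest. Chl1 encodes a neural adhesion molecule of the L1 family with immunoglobulin domains, and Mdga2 encodes a membrane-anchored protein that binds neuroligins at synapses. Cdh23 encodes a long cadherin of the tip links of sensory hair cells, Lamc3 a laminin gamma chain, and Mamdc2 a secreted protein built of MAM domains.

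All 5 regions lay inside their genes and none reached a gene end, with midpoints 9.47 kb (Lamc3) to 163 kb (Mdga2) from the nearer end. The Chl1 region was chr6:103648651-103649700 (GRCm38) in both lists, within a gene span of 222 kb (chr6:103510584-103733038 in RefSeq). Its midpoint lay 138 kb downstream of the Chl1 transcription start and 83.9 kb from the other end of the gene. In Mdga2, whose span is 763 kb (chr12:66459419-67222549), the wild-type region was chr12:67058701-67060050, with its midpoint 163 kb downstream of the start, or 21.4% of the way along the gene. The Cdh23 region was chr10:60445351-60446250 in both lists, 251 kb downstream of the start of a 394 kb span (chr10:60302748-60696513). In Chl1 and Cdh23 the region thus lay past the middle of the gene, at 62.2% and 63.7% of the span from the start.

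The start sites from which these distances were measured are printed here for the 3 genes found in the RefSeq promoter table (GRCm38.p6), each as the 60 bases before the start in lower case and the first transcribed base in capitals. They show the places where neither library listed a region.
Chl1, chr6:103510816-103510876, plus strand: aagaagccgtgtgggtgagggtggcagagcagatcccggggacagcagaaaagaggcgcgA
Mdga2, chr12:67222549-67222609, minus strand: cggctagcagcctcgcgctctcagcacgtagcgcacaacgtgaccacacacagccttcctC
Cdh23, chr10:60696490-60696550, minus strand: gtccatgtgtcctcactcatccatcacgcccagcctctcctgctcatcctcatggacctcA

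For Lamc3 and Mamdc2 only the span of the gene was used. The wild-type Lamc3 region, chr2:31896301-31897200, had its midpoint 9.47 kb from the lower-coordinate end and 52.3 kb from the upper end of a 61.8 kb span (chr2:31887281-31949083). The wild-type Mamdc2 region, chr19:23357101-23357850, lay 54.9 kb from the lower end and 91.0 kb from the upper end of a 146 kb span (chr19:23302609-23448497). Lamc3 was the shortest of the 5 genes and its region the nearest to a gene end.

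**Figure D1:**
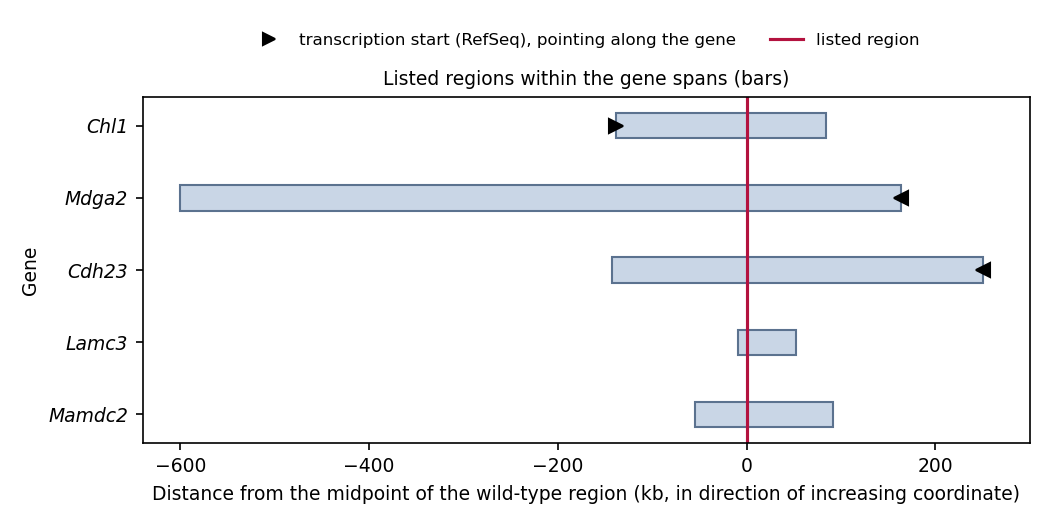
Gene spans of the 5 genes (bars), drawn in kb from the midpoint of the wild-type region (red line at 0), with arrowheads at the RefSeq transcription start where it was found. No region touches a gene end, and the spans run from 61.8 kb for Lamc3 to 763 kb for Mdga2.

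No second gene of the RefSeq table, coding or non-coding, covered the midpoint of any of the 5 regions. The nearest other protein-coding gene was 843 kb away from the Chl1 region (Cntn6, a contactin gene of the same adhesion superfamily) and 775 kb from the Mdga2 region (Rpl10l). It was 15.5 kb away at Cdh23 (Vsir, an immune checkpoint gene whose span lies within that of Cdh23), 49.8 kb at Lamc3 (Fibcd1) and 83.6 kb at Mamdc2 (Smc5). Neither list held another region inside any of the 5 genes, and the nearest other listed region was 1252 kb away, in the null list near Lamc3. Each gene thus held 1 isolated region in each library. These distances were not measured for the other listed regions, so isolation is not shown to be particular to the 5 genes.

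The median span of the 5 genes was 222 kb, against 194 kb for the genes under the 7 other overlapping regions inside protein-coding genes. Genes under regions found in 1 list only had a median span of 86.9 kb in the wild-type list (82 regions) and 114 kb in the null list (107 regions). The median distance from midpoint to nearer gene end was 83.9 kb for the 5 regions and 54.9 kb for the 7 others, and it was 13.5 kb and 21.5 kb for the single-list regions of the wild-type and null lists. Lamc3, at 9.47 kb, lay nearer to a gene end than either of these medians. These are descriptions of few regions and were given no test.

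The lists agreed on where each region begins and ends to within 2 steps of the 150 bp grid on which the widths fall. Chl1 (1050 bp) and Cdh23 (900 bp) had identical coordinates in both libraries. The Mdga2 region was 1350 bp wide in wild type and 1650 bp in null, which reached 300 bp further at its upper end. The Mamdc2 region was 750 bp wide in wild type and 900 bp in null. Lamc3 went the other way, with 900 bp in wild type and 600 bp in null, where the region lost 150 bp at each end. Identical coordinates were thus found for 2 of the 5 regions and for 20 of the 26 other overlapping regions.

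Chl1 held the most reads of the 5 genes, with 95 in the wild-type library (exact 95% Poisson interval 76.9 to 116) and 58 in the null library (44.0 to 75.0). It ranked 8th of 187 and 9th of 235. Its intervals did not overlap between the libraries, which were not scaled to each other. Reads are 2 to the power of the deposited value, which for Chl1 was 6.57 in wild type and 5.86 in null, and every interval here covers counting error only.

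Mdga2 held 60 wild-type reads (45.8 to 77.2) and 44 null reads (32.0 to 59.1), and ranked 12th and 11th. The intervals overlapped. Cdh23 held 52 wild-type reads (38.8 to 68.2) and 27 null reads (17.8 to 39.3), and ranked 14th and 16th. Its intervals overlapped by less than 1 read, between 38.8 and 39.3.

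The 2 matrix genes stood much nearer to the lowest read number in the lists, which was 11 in both. Lamc3 held 24 wild-type reads (15.4 to 35.7) and 12 null reads (6.20 to 21.0), and ranked 22nd of 187 and 160th of 235. Mamdc2 held 20 wild-type reads (12.2 to 30.9) and 18 null reads (10.7 to 28.4), at ranks 30 and 33. The null interval of both genes included 11. For comparison, the median over all regions was 14 reads for wild type and 13 for null. Over the 26 other overlapping regions it was 44.5 and 22.5 reads, near the 52 and 27 of the 5 genes. Lamc3 and Mamdc2 lay below the medians of the 26 in both libraries. High reads were thus common to overlapping regions and not particular to the 5 genes.

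**Figure D2:**
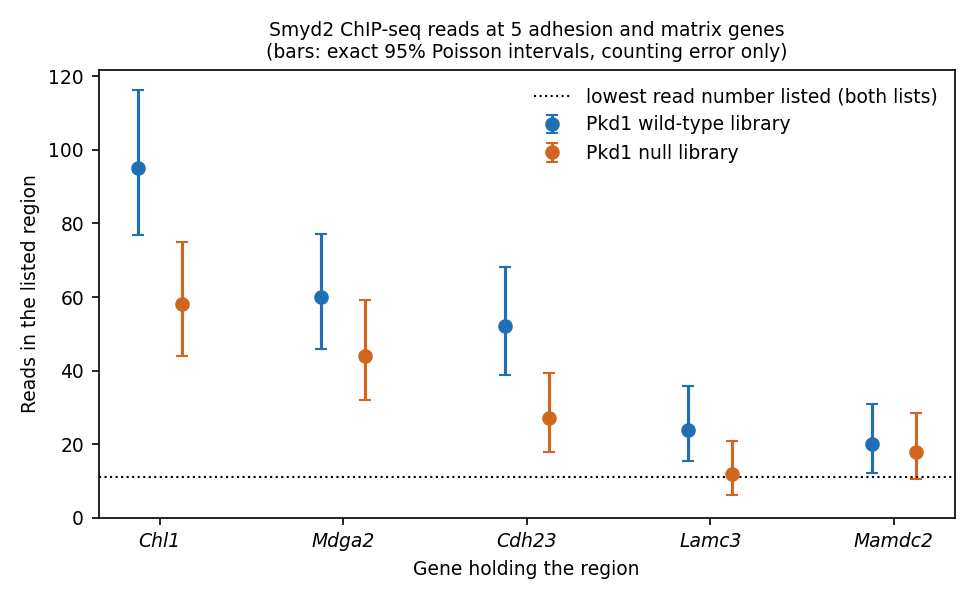
Reads in the listed region (linear axis from 0) for each of the 5 genes in the wild-type (blue) and null (orange) library, 1 library each, with exact 95% Poisson intervals and the lowest listed read number of 11 as a dotted line. Chl1 is highest in both libraries at 95 and 58 reads, and the null interval reaches the dotted line for Lamc3 and Mamdc2.

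The 5 regions together held 251 wild-type and 159 null reads, which is 3.36% of all reads in the wild-type list and 2.37% of those in the null list. The share was also lower in null for the 7 other overlapping regions inside protein-coding genes (3.34% and 2.56%). For all 26 other overlapping regions it was 67.0% and 53.1%. Per kb of each list's own region, the wild-type library held 90.5 reads at Chl1, 57.8 at Cdh23, 44.4 at Mdga2 and 26.7 at both Lamc3 and Mamdc2. The null library held 55.2 at Chl1, 30 at Cdh23, 26.7 at Mdga2 and 20 at both Lamc3 and Mamdc2. The order by density was therefore the same in both libraries, with Chl1 first and the matrix genes last.

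The ratio of wild-type to null reads was compared with that of the other overlapping regions, since reads were not scaled and total depth is unknown. What sets the ratio common to those regions was not tested. Wild-type reads were higher at all 5 genes, against 28 of all 31 overlapping regions (90.3%), so the direction says nothing about these genes. Their summed ratio was 1.58 (exact 95% binomial interval 1.29 to 1.94), and that of the 26 other regions was 1.40 (1.34 to 1.47). The 4 regions with most reads dominate the second sum. By the authors' gene names they included Gm10800 (1893 wild-type and 1396 null reads), Gm10801 (1284 and 902) and Gm10718 (267 and 198). The other, chr9:35304751-35305950 (593 and 427), had no gene name. None had its midpoint inside a protein-coding gene, and whether their reads reflect Smyd2 binding was not tested. All 26 held 67.0% of the reads in the wild-type list, and the 22 without those 4 held 13.0%. The ratio of the 22 was 1.51 (1.36 to 1.67). The difference between the 5 genes and the 26 others was within counting error. The ratio of the 5 was 1.12 times that of the 26, with an interval of 0.918 to 1.38, and 1.05 times that of the 22. That interval takes the ratio of the 26 as fixed and leaves out its own counting error. No p-value is given for the sum, because the genes were chosen with results known.

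Gene by gene, the ratio was 2.00 at Lamc3 (interval 0.962 to 4.39), 1.93 at Cdh23 (1.19 to 3.19), 1.64 at Chl1 (1.17 to 2.31), 1.36 at Mdga2 (0.909 to 2.06) and 1.11 at Mamdc2 (0.558 to 2.23). All 5 intervals include the ratio of the 26 others, and neighbours in this order do not differ beyond their intervals. Among the 31 regions these ratios ranked 4th, 5th, 10th, 18th and 26th, and all lay within the range of the others (0.565 to 2.78). The medians were 1.64 for the 5 genes and 1.38 for the 26 others.

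An exact binomial test of each region against the summed reads of the other 30, two-sided and adjusted over all 31 regions by the Benjamini-Hochberg method, called 0 of the 5 genes and 0 of the 31 regions (0%). The unadjusted exact p was 0.209 at Cdh23, 0.398 at Lamc3, 0.412 at Chl1, 0.511 at Mamdc2 and 0.921 at Mdga2. The adjusted p was 0.932 for Cdh23, Lamc3, Chl1 and Mamdc2 and 1 for Mdga2. Without adjustment, 2 of the 31 regions had an exact p under 0.05, and neither was among the 5. This test compares 2 libraries and not the genotypes.

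The depth sets how far these ratios could differ unnoticed. The intervals below take the ratio of the other regions as fixed. Relative to the other regions, the interval ran from 0.831 to 1.64 times at Chl1, 0.644 to 1.46 times at Mdga2, 0.844 to 2.27 times at Cdh23, 0.682 to 3.11 times at Lamc3 and 0.395 to 1.58 times at Mamdc2. A change of 2-fold lay outside the interval in either direction at Chl1 and Mdga2 only. At Lamc3 a 3-fold higher relative reading lay within it.

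**Figure D3:**
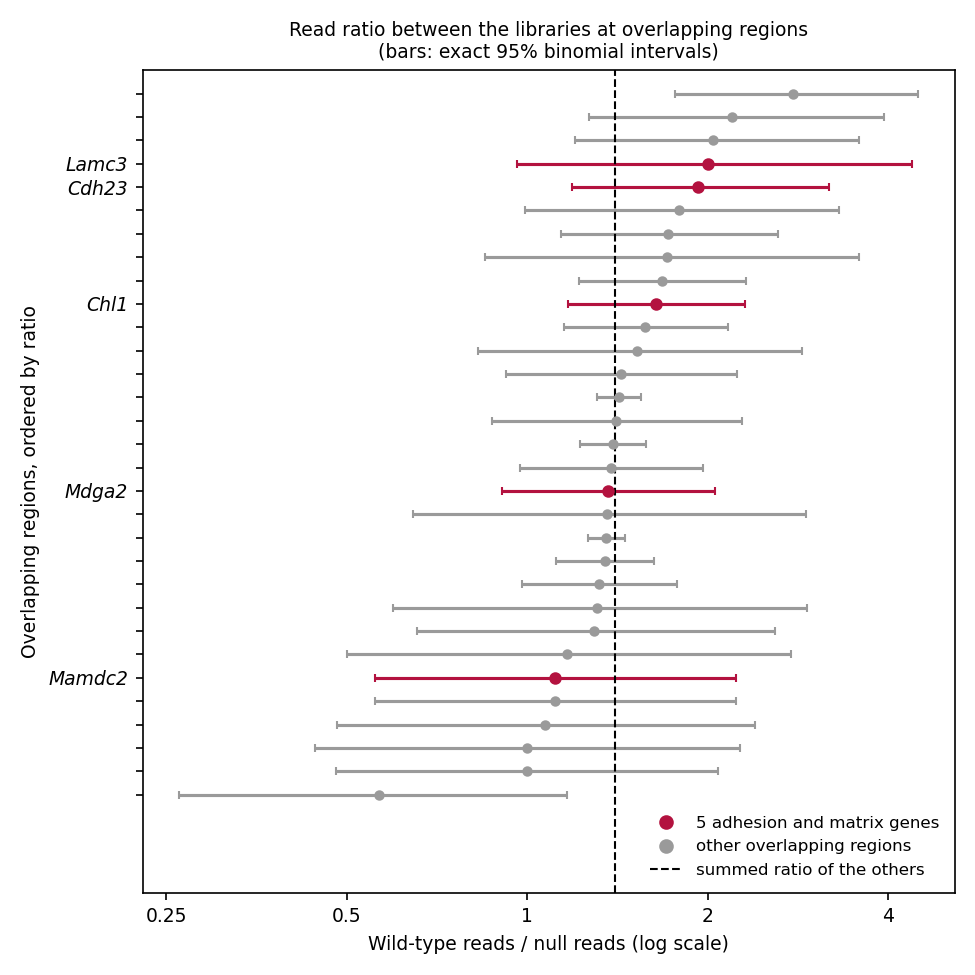
Ratio of wild-type to null reads (log scale) at the 31 overlapping regions, ordered by ratio, with exact 95% binomial intervals; the 5 genes are red and the dashed line is the summed ratio of the 26 others, 1.40. All 5 red intervals cross the dashed line.

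Region width entered the ratio for the 3 genes whose coordinates differed between the lists. With reads per kb in place of reads, the ratio at Mdga2 went from 1.36 to 1.67, at Mamdc2 from 1.11 to 1.33 and at Lamc3 from 2.00 to 1.33. Mdga2 then stood above the ratio of the other regions and Lamc3 below it, the reverse of their places by reads. Chl1 and Cdh23 kept ratios of 1.64 and 1.93, since their regions have the same width in both lists.

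For each of the 5 genes, the overlapping region in another protein-coding gene with the most similar reads was found as the nearest in log2 reads over the 2 libraries. For both Chl1 (distance 0.76) and Mdga2 (0.24) it was Cdk5rap2, a centrosomal protein gene, with 67 wild-type and 39 null reads. For Cdh23 (0.32) it was Acacb, an acetyl-CoA carboxylase gene, with 45 and 32 reads. For Lamc3 (0.40) it was Pde1c, a cyclic nucleotide phosphodiesterase gene, with 19 and 14 reads, and for Mamdc2 (0.25) it was Ndst4, a heparan sulfate modifying enzyme gene, with 17 and 17 reads. Chl1 had no close neighbour in this set: its reads exceeded those of every overlapping region in a protein-coding gene outside the 5. Overlapping regions outside protein-coding genes were left out of the search, and some of them had similar reads. The region chr4:3089251-3091350 held 109 wild-type and 65 null reads, and chrX:143482651-143483550 held 80 and 58, against 95 and 58 at Chl1. At chr1:12644401-12645300 the reads were 20 and 18, the same as at Mamdc2.

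The wider group of adhesion and matrix genes was counted over 8 lists holding 249 genes. These include 13 genes of the hair cell tip-link complex and 19 MAM domain genes, not all of which encode adhesion or matrix proteins. A region midpoint lay inside 10 of them in wild type (4.02%) and 8 in null (3.21%), against 95 (0.434%) and 120 (0.548%) of 21887 protein-coding genes. In both libraries it was 5, the members themselves, against 15 protein-coding genes (0.0685%), from which nothing is read because the members were chosen that way. Without the members, 5 of 244 genes in wild type (2.05%) and 3 of 244 in null (1.23%) held a region.

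These genes are long, with a median span of 98.4 kb against 17.2 kb for all protein-coding genes. Of the listed genes of 100 kb or longer, 9 of 123 held a region in wild type (7.32%) and 6 of 123 in null (4.88%), against 1.89% and 2.72% of 2429 protein-coding genes of that length. Without the members these shares were 4.20% in wild type (5 of 119) and 1.68% in null (2 of 119). In the null list the group without its members thus lay below the long genes at large, and in the wild-type list above them. With 5 and 2 genes, these shares are too small to set the libraries apart. The cut at 100 kb also does not match length, since the median span was 294 kb in the group and 172 kb in the long genes at large. No test was made of these shares.

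By family, the immunoglobulin adhesion list held 4 of 40 genes in wild type and 3 in null, the MAM domain list 2 of 19 in both, and the laminin and basement membrane list 2 of 30 and 1. The cadherin superfamily list held 1 of 51 genes in wild type and 2 in null, the synaptic adhesion list 1 of 27 and 0, and the list of collagens and interstitial matrix 1 of 47 in each. Of 26 integrin genes none was listed in either library, nor was any of 13 genes of the tip-link complex in which the Cdh23 protein works, such as Pcdh15. These family counts include the members, which were chosen for holding a region in both lists. The MAM domain list counts only the members Mdga2 and Mamdc2, and the immunoglobulin list counts Mdga2 as well, together with Chl1. Cdh23 was the only cadherin gene counted in wild type, and Lamc3 the only laminin and basement membrane gene counted in null. Differences between the families are therefore partly set by the choice of members and are not read as a result. Kidney epithelium markers held a region in 0 of 11 genes in either list, and markers of other cell types in 0 of 11 in wild type and 1 of 11 in null (Rbfox3, a neuronal splicing factor gene, 24 reads). Over all protein-coding genes the share with a region was 0.434% in wild type and 0.548% in null. Nothing is therefore read from a count of 0 or 1 in lists this short. Region lists carry no expression, so the labelled cell type could not be checked with them.

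The adhesion and matrix genes found in 1 list only held 11 to 15 reads in wild type, where the lowest of the 5 genes was Mamdc2 with 20. In the null list they held 11 to 17 reads, and Robo2 and Col7a1 there stood above the lowest of the 5, Lamc3 with 12. In the wild-type list they were Cntn1, a contactin gene (15 reads, chr15:92168401-92169000), Cntnap2, a neurexin-family gene (14 reads, chr6:45615751-45616350), Tnr, the tenascin-R gene (13 reads, chr1:159865801-159866550), Frem2, a basement membrane gene (12 reads, chr3:53596951-53597700), and Sdk2, a sidekick adhesion gene (11 reads, chr11:113822401-113823000). In the null list they were Robo2, a receptor gene for Slit guidance proteins that also acts in kidney development (17 reads), Col7a1, the gene of anchoring fibril collagen (13 reads, chr9:108954151-108954900), and Pcdh11x, a protocadherin gene (11 reads, chrX:120864301-120864900). Each lay at least 1967 kb from any region of the other list. The reads of the other library at these places are not in the lists, so a difference between the libraries cannot be read from them.

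**Figure D4:**
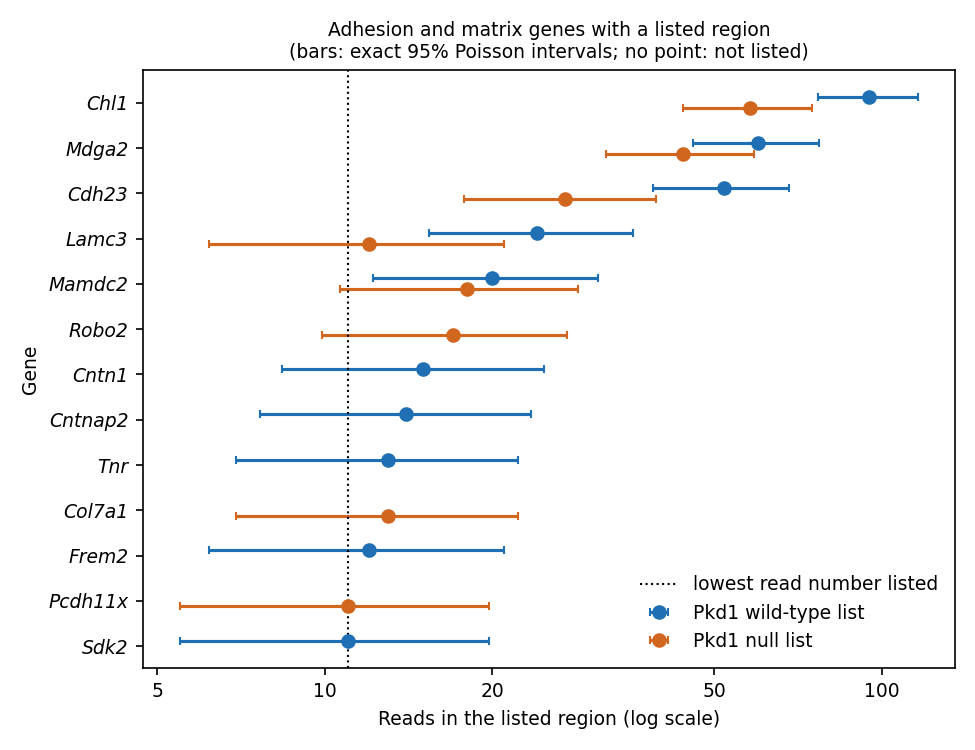
Reads (log scale) in every listed region inside an adhesion or matrix gene, in the wild-type (blue) and null (orange) list, with exact 95% Poisson intervals; a missing point means that the region was not listed. The 5 genes with points in both colours are the ones described above, and the single-list genes lie between 11 and 17 reads.

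The Robo2 region lay at a transcription start inside the gene, whereas those of Chl1, Mdga2 and Cdh23 lay 138 to 251 kb from the start in the same table. The null region, chr16:75092401-75093150, had its midpoint 5 bp from 1 of the 3 Robo2 starts in the promoter table, although the authors' list names no gene for it. It was also 355 kb from the nearer end of the 1555 kb Robo2 span, farther than any of the 5 regions from the end of its gene. Listed regions that hold a start of that table were few, 3 of 187 in wild type (1.60%) and 8 of 235 in null (3.40%), and none was among the 31 overlapping regions. The Col7a1 region lay 939 bp from its start by midpoint. The sequence before the Robo2 start is shown because it is the stretch of an adhesion gene's promoter that the null list covers, with 250 bases in lower case and the first transcribed base in capitals. It ends in a run of 13 T directly before that base.
Robo2, chr16:75092770-75093020, minus strand: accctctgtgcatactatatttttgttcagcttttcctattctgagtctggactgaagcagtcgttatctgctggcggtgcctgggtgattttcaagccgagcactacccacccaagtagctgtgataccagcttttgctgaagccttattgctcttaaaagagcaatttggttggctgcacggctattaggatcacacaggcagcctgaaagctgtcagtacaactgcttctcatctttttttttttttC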

How the data were processed

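Smyd2 ChIP-seq was deposited as 1 region list per library. A row names a region, a nearby gene and 1 value from the mapped reads, per the file headers. The authors' deposited value is on a log2 scale and was turned into reads as 2 to its power, which gave whole numbers within a relative tolerance of 0.001. It was not scaled to depth, and total depth is unknown. Coordinates are on GRCm38 (from the submitters' processing notes). How reads were aligned, how regions were chosen and whether a control was used is not given in the sources used here.

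Members and gene lists were chosen with earlier results of these data known. Named genes were the members, every adhesion or matrix gene covering a region midpoint or assigned by the authors, and the region most like each member in reads. The nearest protein-coding neighbours, Rbfox3 and Pcdh15 fall outside that rule and were named after the values were seen. Gene spans and start sequences came from RefSeq tables of GRCm38.p6, where 3 of the 5 members had a start; all 249 list genes matched by symbol. Exon and intron positions and the sequence of the regions were not analysed here. Regions were shared when they overlapped by 1 bp or more. Ratios carry exact 95% binomial intervals and read numbers exact 95% Poisson intervals. PCR duplicates may make reads depend on each other, so these intervals cover counting error only. The exact binomial test was adjusted over 31 regions and tested on simulated data. The simulated reads were drawn from the binomial model that the test assumes, so they cannot check spread beyond counting error. Alternatives covered the reference regions, reads per kb, overlap rules, read thresholds and gene assignment. Tests were run in scipy 1.17.1 and numpy 2.4.6 under Python 3.11.15, tables were handled in pandas 2.3.3 and plots drawn in matplotlib 3.10.9.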

Additional observations from a re-analysis of the deposited data

How the results depend on the processing

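No paired analysis was possible because a single library stood for each genotype, which also meant that leaving out a replicate was not possible. The settings varied gave 45 values, and 40 of them stayed on the same side of the threshold and in the same direction, or close to the value reported. Over 4 other choices of reference regions, the adjusted exact binomial p of the 5 genes ran from 0.740 to 1. With reads per kb, the ratio relative to the other regions became 1.17 at Mdga2 (0.966 by reads) and 0.935 at Lamc3 (1.42 by reads), because their regions differ in width between the lists. Identical coordinates left 2 of the 5 genes, and 20 or more reads in both libraries left 3. With regions of 14 or more reads, 5 adhesion and matrix genes remained in the null list, in place of 8. These 5 were not the members, since Robo2 (17 reads) stayed and Lamc3 (12 reads) dropped out. In the wild-type list 7 remained, in place of 10. At 12 to 24 reads a library, the ratios at Lamc3 and Mamdc2 are limited by depth.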
